A study of Mus musculus with 18 samples.

Results

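The comparison described here is that of wild-type mouse mast cells 4 h after stimulation with the same cultures untreated. It rests on 6 of the 18 arrays of the study, 1 untreated and 1 4 h array from each of the cultures numbered 6, 8 and 9, and arrays were paired by culture number. The study measured total RNA of mast cells of wild-type and Dnmt3a knockout genotype on Illumina bead arrays, from 3 cultures of each genotype, untreated and after 4 h and 24 h of stimulation. Dnmt3a encodes an enzyme that sets new DNA methylation, and the wild-type cells carry no deletion. The labels call the treatment IgE, and the study's design text gives IgE and antigen. All cells are labelled as from female mice and carry 5 weeks as an age, without saying whether this is the age of the animals or of the culture. Neither the number of mice behind a culture nor the way the cells were grown is given there.

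Mast cells carry the high-affinity IgE receptor, and antigen that crosslinks its bound IgE releases stored granule mediators within minutes. The same signal runs through Src-family and Tec kinases, calcium and calcineurin, MAP kinases and NF-kB to genes for cytokines and chemokines, which are transcribed and secreted over the following hours. Fc receptors for IgG on the same cells, the inhibitory Fcgr2b among them, adjust this response.

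Of 13 mast cell markers on the array, 12 were above the detection limit on all 6 arrays, among them Kit, Cpa3, Tpsb2 and both specific chains of the IgE receptor, Fcer1a and Ms4a2. The detection limit of an array is the signal that at most a share of 0.01 of its olfactory and vomeronasal receptor probes reached. Above it on at least 1 of the 6 arrays were 3 of 14 macrophage markers. Of these Adgre1 and Lyz2 were above it on all 6, while C1qa, C1qb, C1qc, Fcgr1 and Mertk were below it throughout. The same held for 4 of 14 dendritic cell markers, with Bst2 and Siglech above it on all 6. For neutrophils 3 of 15, for fibroblasts 2 of 12 and for eosinophils 1 of 7 were above it on some array, 0 of them on all 6. Lymphocyte markers were above it for 4 of 16 (T and NK cells, with Cd8b1, Lat and Prf1 on all 6 arrays) and 3 of 10 (B cells). Basophil markers, some of which mast cells share, were above it for 11 of 12, and for 9 on all 6 arrays, among them Mcpt8 and Cd200r3. Also above it were 7 of 13 stem and progenitor markers (6 on all 6 arrays, Kit and Gata2 among them), 5 of 12 erythroid markers (3 on all 6) and 4 of 10 megakaryocyte and platelet markers (Gp5, Itga2b and Vwf on all 6, while Pf4, Ppbp and Gp6 were below it throughout). The summed intensity of the 10 megakaryocyte and platelet markers ran from 3772 to 7004 on untreated arrays and from 2202 to 3353 on 4 h arrays. That of the 13 stem and progenitor markers, several of which mast cells express as well, ran from 27665 to 34085 and from 17074 to 26043, and that of the 12 erythroid markers from 2481 to 5130 and from 4227 to 8104. None of the 4 measured members of the first and the 7 of the second list passed the test. Of 6 erythroid markers measured 1, the carbonic anhydrase gene Car2, rose. Of 11 basophil markers 3 rose, all of them cytokine genes (Il4, Il6 and Csf1), and 1 fell (Cd200r3). The part of such cells in the results below was not tested. In bulk RNA, fewer cells of a type and less RNA per cell cannot be told apart. Between 30.2% and 33.8% of probes were above the limit on these 6 arrays. The 3 Dnmt3a probes were above it on none of them, so the genotype labels could not be checked here.

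After 4 h, 371 of 8985 genes tested were higher and 398 lower than in the untreated cultures (limma, adjusted p threshold 0.05), together 8.56% of the genes. These were 4.13% called higher and 4.43% called lower, the shares beside which the counts of each gene list below are to be read. More rises than falls were very large: 27 genes rose and 5 fell at least 4-fold. At least 2-fold the counts were nearer, 131 higher and 115 lower, together 246 genes (2.74%). Secreted chemokines and cytokines led the rises, with Ccl1, Ccl3, Ccl7 and Csf2 first. The falls were led by Ypel3, Pigz and the chemokine receptor Cx3cr1. Of the 769 genes called, 768 had the same sign in all 3 cultures, against 50.4% of all genes. On 567 of the called genes the 3 untreated and the 3 4 h arrays did not overlap, against 19.4% of all genes. By direction these were 284 of the rises, against 9.36% of all genes, and 283 of the falls, against 10.1%. Calls, signs and overlap come from the same arrays, and a paired test favours genes whose cultures agree. These counts therefore describe the called genes and give the calls no further support.

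How many genes passed depended on how the spread was estimated. The count fell to 164 when arrays were not paired by culture, to 31 when only the 6 arrays were fitted, to 122 without culture 6 and to 26 without culture 8, while it was 1506 without the 4 h array of culture 9. Under median scaling, which moved the median difference of all genes by 0.13 on the log2 scale, 763 genes passed and 75.5% of them were higher, against 48.2% in the quantile-normalised values used here. Of 106 genes that passed and met the rule for naming, 9 did so under all of the 18 other settings tried: Ccl3, Ccl4, Ccl7, Egr2, Fxyd6, Il13, Pdcd1lg2, Pigz and Pim3. None of the named genes changed sign under any of them, but under several of them none could. Changing the block, fitting only the 6 arrays or leaving out a knockout culture leaves the difference itself as it was. Leaving out a wild-type culture cannot reverse a gene with the same sign in every culture. Errors below are SEs from the spread estimated over all 18 arrays of both genotypes, and where cultures are not separate animals the p-values measure only the spread between these samples.

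**Figure D1:**
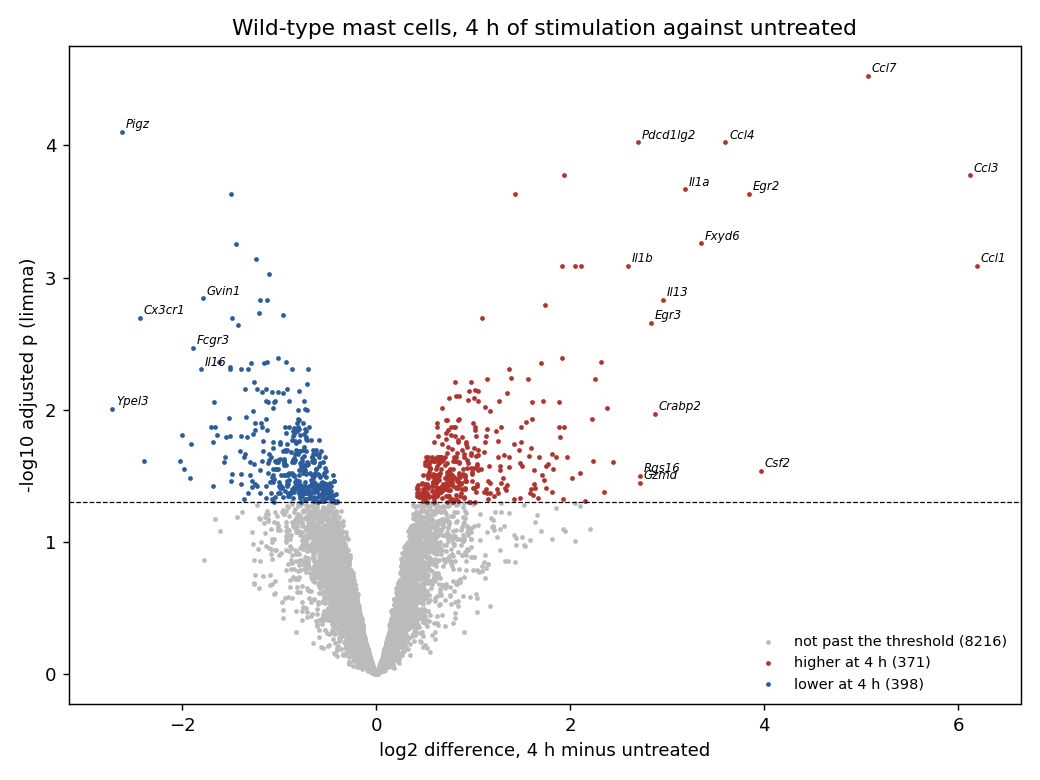
Each point is 1 gene, with the log2 difference of 4 h minus untreated in wild-type cells on the x axis and −log10 of the limma adjusted p on the y axis (dashed line: 0.05). Of 8985 genes, 371 lie above the line to the right and 398 to the left, and the points farthest right are Ccl1, Ccl3 and Ccl7.

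Chemokines, the secreted proteins that draw leukocytes to a site, were the group with the largest rises. Of 15 measured, 6 rose and 0 fell (40% and 0%), with a median log2 difference of 1.32 against −0.04 over all genes. Ccl1, a ligand of CCR8, read 6.51, 5.90 and 6.27 on the untreated and 13.75, 13.80 and 9.72 on the 4 h arrays (log2 intensity, cultures 6, 8 and 9 in that order here and below). It was above the detection limit on none of the untreated and on all of the 4 h arrays, so the rise is a lower bound of at least 52.8-fold (adjusted p = 0.000814, means 6.23 and 12.42). Cultures 6 and 8 ended about level and culture 9 well under them. Ccl3, which encodes MIP-1α, read 7.67, 7.15 and 7.84 on the untreated and 14.63, 14.40 and 11.97 on the 4 h arrays. The groups did not overlap, and the log2 difference was 6.12 ± 0.55 (SE), a 69.4-fold rise (adjusted p = 0.000169). Its neighbour Ccl4, which encodes MIP-1β, read 10.82, 10.42 and 9.90 on the untreated and 14.58, 14.39 and 12.97 on the 4 h arrays and rose by 3.60 ± 0.30 (adjusted p = 9.47e-05). Here too culture 9 had the lowest 4 h value.

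All 3 cultures reached similar levels of the monocyte attractants Ccl7 and Ccl2. Ccl7 read 9.05, 7.30 and 8.61 on the untreated and 13.65, 13.51 and 13.01 on the 4 h arrays, a rise of 5.07 ± 0.34 on the log2 scale or 33.6-fold (adjusted p = 2.99e-05). The untreated arrays differed more among themselves than the 4 h arrays. Ccl2, which encodes MCP-1, read 11.21, 10.85 and 10.80 on the untreated and 13.03, 12.73 and 12.91 on the 4 h arrays and rose by 1.94 ± 0.18 (adjusted p = 0.000169). Ccl24 was the sixth chemokine that rose. Of the others, Ccl9 and Xcl1 had log2 differences of 1.64 and 2.05 that did not pass.

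Of 35 measured cytokines and growth factors, 14 rose and 2 fell (40% and 5.71%, median log2 difference 0.75). Csf2, the growth factor GM-CSF, read 5.88, 5.89 and 5.94 on the untreated and 13.02, 9.84 and 6.75 on the 4 h arrays. It was below the limit on all untreated arrays and differed most between cultures: at 4 h culture 6 was high, culture 8 intermediate and culture 9 at its array's limit of 6.75. The bound is at least 8.99-fold (adjusted p = 0.0289, means 5.90 and 9.87). Il13, a type 2 cytokine, read 7.05, 7.08 and 7.16 on the untreated and 10.71, 10.11 and 9.33 on the 4 h arrays. The untreated arrays lay close together, every 4 h array was above them, and the rise was 2.96 ± 0.37 or 7.76-fold (adjusted p = 0.00147). Il4, next to Il13 on chromosome 11, read 11.00, 11.55 and 11.14 on the untreated and 13.26, 12.42 and 11.43 on the 4 h arrays and rose by 1.14 ± 0.31 (adjusted p = 0.0423), with overlap between the groups through culture 9.

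The inflammatory cytokines Il1a and Il1b, neighbours on chromosome 2, both rose. Il1a read 7.34, 6.18 and 6.81 on the untreated and 11.35, 9.74 and 8.79 on the 4 h arrays and rose by 3.19 ± 0.30 (adjusted p = 0.000215). Il1b read 7.86, 6.75 and 7.23 on the untreated and 11.02, 9.12 and 9.46 on the 4 h arrays and rose by 2.59 ± 0.30 (adjusted p = 0.000814). For each gene culture 6 was highest at 4 h, and the groups did not overlap. Tnf read 6.61, 7.44 and 7.15 on the untreated and 10.24, 8.59 and 8.69 on the 4 h arrays and rose by 2.10 ± 0.51 (adjusted p = 0.0302), again with culture 6 highest. Il6 and Csf1, which encodes the macrophage growth factor M-CSF, rose by 1.35 ± 0.23 and 1.89 ± 0.33. Igf2, Tnfsf14, Tnfsf10, Tslp, Tnfsf8 and Tgfb1 rose by between 0.69 and 2.11. Il3, the neighbour of Csf2 and a growth factor of mast cells, read 5.97, 6.29 and 5.75 on the untreated and 8.80, 7.94 and 6.04 on the 4 h arrays. Its untreated values and the 4 h value of culture 9 were below their arrays' limits. The Il3 difference of 1.59 ± 0.57 did not pass (adjusted p = 0.0961).

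The cytokines that fell were Il15 and Il16. Il15, which sustains NK and memory T cells, read 8.34, 9.96 and 9.63 on the untreated and 6.57, 6.69 and 8.60 on the 4 h arrays, a fall of −2.02 ± 0.46 with overlap through culture 9 (adjusted p = 0.0245). The 4 h value of culture 6 was below its array's limit of 6.71. Il16, a CD4 ligand, read 10.48, 11.24 and 10.95 on the untreated and 8.64, 8.93 and 9.68 on the 4 h arrays and fell in every culture, by −1.81 ± 0.28 (adjusted p = 0.00496). Without pairing by culture 4 cytokines passed as higher, and without culture 8 also 4. For chemokines these counts were 5 and 5, with 9 when the 4 h array of culture 9 was left out.

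**Figure D2:**
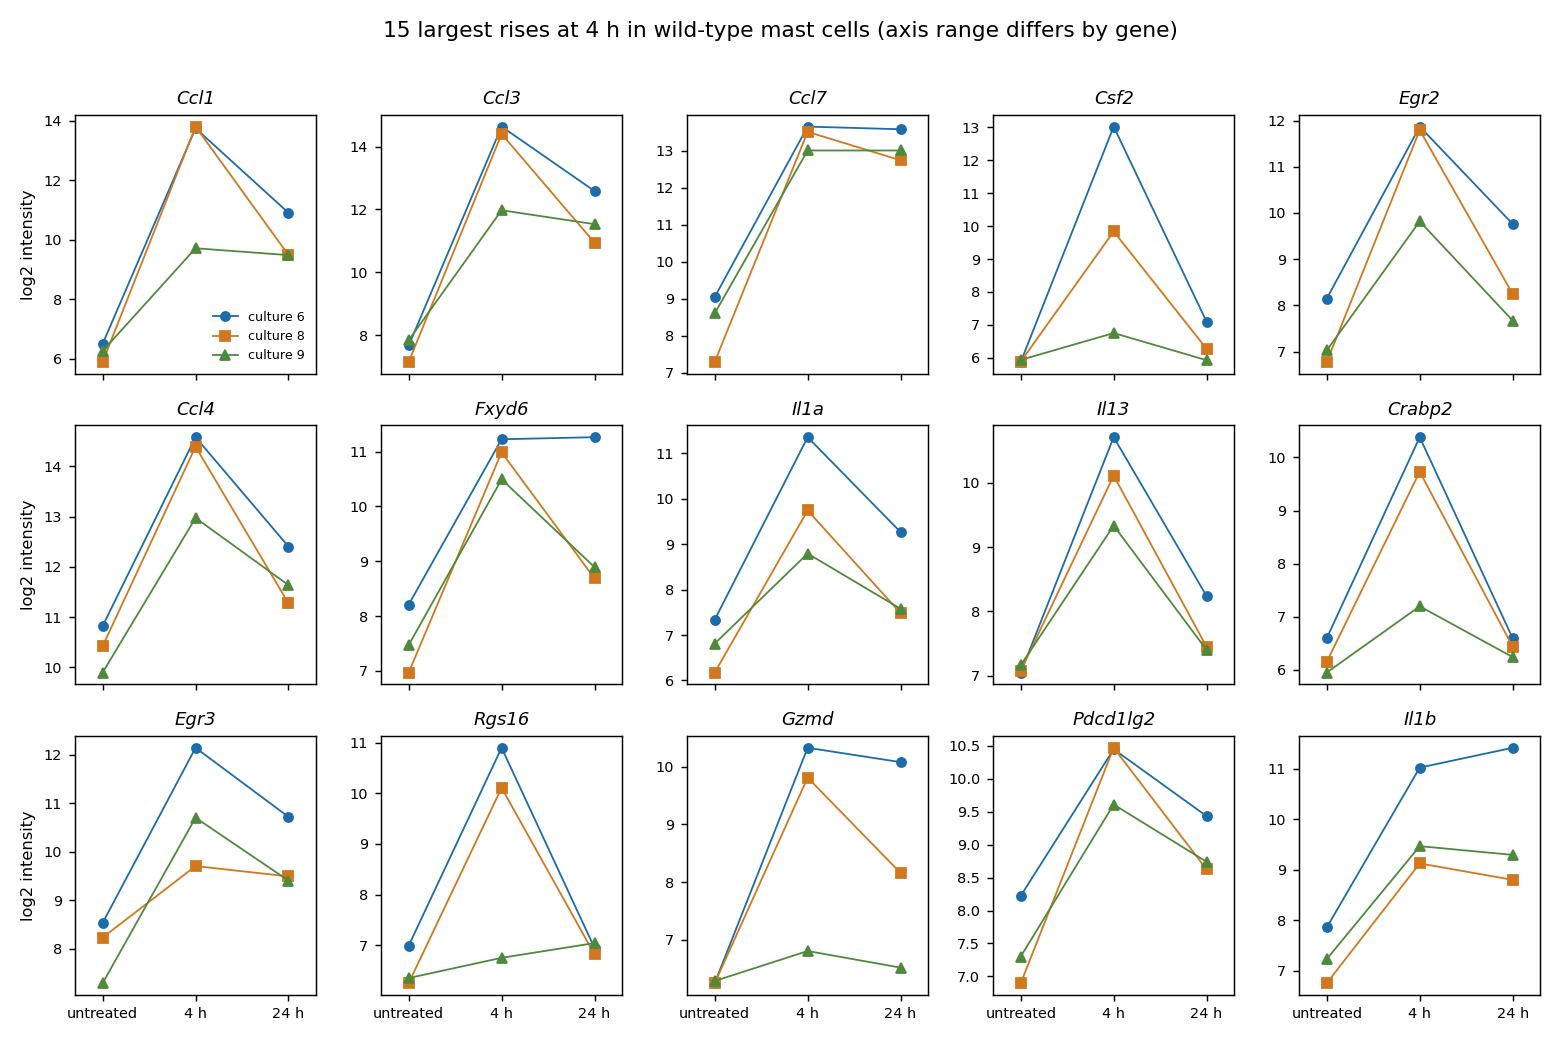
Log2 intensity (y axis) of the 15 genes with the largest rises at 4 h, for wild-type cultures 6, 8 and 9 (a line each) untreated, at 4 h and at 24 h (x axis). Culture 9 had the smallest rise for 12 of the 15, most visibly for Csf2, Gzmd and Rgs16.

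The stretch just before the transcription start of 6 of these secreted-protein genes is printed. They were picked after their values were seen and are not the 6 largest rises. Csf2 rose more than Tnf, but its window held no match to the motifs searched and is not printed. Each run is the 200 bases before the start in RefSeq on GRCm38.p6, read 5′ to 3′ on the gene's own strand, which is the minus strand for all 6. Capitals mark matches to GGAAAA (the core read by NFAT), TATAAA (the TATA box) and TGANTCA (AP-1), on either strand, so that GGAAAA also appears as TTTTCC. In Il13 a match to TATAAA and one on the other strand overlap as TTTATAAA. The windows are chr11:82179813-82180012 (Ccl1), chr11:83649379-83649578 (Ccl3), chr11:53634703-53634902 (Il13), chr2:129309973-129310172 (Il1a), chr2:129371140-129371339 (Il1b) and chr17:35202008-35202207 (Tnf).
Ccl1: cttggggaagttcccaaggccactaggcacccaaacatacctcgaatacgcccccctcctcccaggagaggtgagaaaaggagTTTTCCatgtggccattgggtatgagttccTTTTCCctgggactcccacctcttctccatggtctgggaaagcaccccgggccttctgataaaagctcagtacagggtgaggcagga
Ccl3: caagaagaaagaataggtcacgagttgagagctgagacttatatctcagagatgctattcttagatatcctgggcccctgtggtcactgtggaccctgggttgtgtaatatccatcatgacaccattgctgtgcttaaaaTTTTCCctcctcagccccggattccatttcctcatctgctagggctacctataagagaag
Il13: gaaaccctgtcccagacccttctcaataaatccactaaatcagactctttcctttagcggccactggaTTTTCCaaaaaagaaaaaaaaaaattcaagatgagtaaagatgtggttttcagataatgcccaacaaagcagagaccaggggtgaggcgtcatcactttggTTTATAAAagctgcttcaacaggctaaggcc
Il1a: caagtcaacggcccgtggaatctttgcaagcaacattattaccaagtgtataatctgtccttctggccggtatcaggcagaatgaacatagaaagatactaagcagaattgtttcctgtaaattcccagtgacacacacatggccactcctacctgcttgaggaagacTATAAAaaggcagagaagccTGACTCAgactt
Il1b: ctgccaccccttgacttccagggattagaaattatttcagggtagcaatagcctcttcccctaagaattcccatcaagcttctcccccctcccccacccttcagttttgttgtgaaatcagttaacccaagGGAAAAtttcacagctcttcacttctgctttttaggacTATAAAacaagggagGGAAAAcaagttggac
Tnf: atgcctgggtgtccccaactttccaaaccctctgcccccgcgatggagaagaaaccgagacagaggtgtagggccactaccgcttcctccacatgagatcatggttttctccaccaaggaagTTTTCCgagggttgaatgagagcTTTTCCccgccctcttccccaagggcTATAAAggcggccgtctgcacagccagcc

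Over the 250 bases before the start, GGAAAA was in 6 of the 11 largest risers that have an entry in the promoter table, in 18.4% of the genes tested and in 20.6% of all 27025 promoters. TATAAA was in 3 of the 11, in 6.58% of the genes tested and in 13% of all promoters. Among all 302 risers with an entry these shares were 19.9% and 4.3%. No match to the NF-kB motif GGGANTTTC, the cAMP response element TGACGTCA, the EGR motif GCGNGGGCG or the CArG box was in the 11 windows, and TGANTCA was in 1, that of Il1a. The motifs and the genes shown were chosen after their values were seen, and a match is only a run of letters.

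Transcription factors induced by receptor signals were mixed. Of 41 measured, 8 rose and 1 fell (19.5% and 2.44%, median log2 difference 0.12). Egr2, a zinc-finger factor of the early growth response family, read 8.15, 6.78 and 7.03 on the untreated and 11.87, 11.79 and 9.82 on the 4 h arrays. All 4 h arrays were above all untreated ones, and the rise was 3.84 ± 0.38 or 14.4-fold (adjusted p = 0.000232). Egr3 of the same family read 8.53, 8.23 and 7.29 on the untreated and 12.14, 9.70 and 10.70 on the 4 h arrays and rose by 2.83 ± 0.38 (adjusted p = 0.00221), here with culture 8 lowest at 4 h. Gadd45b, a stress-induced adaptor, rose by 1.63 ± 0.39 and Csrnp1 by 1.31 ± 0.32. Ets2, Nab2 (a corepressor of EGR proteins), Fosl2 and Id2 rose by less, between 0.60 and 1.08. Irf1, a factor of interferon responses, fell by 1.37 ± 0.39 with overlapping groups. Fos had a difference of −0.45 ± 0.45, and its groups overlapped. With only the 6 arrays fitted Egr2 was the only factor of this list that passed.

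Feedback genes rose where they passed. Of 16 regulators of MAP kinases 4 rose and 0 fell (25% and 0%). They were the phosphatases Dusp5 (1.97 ± 0.43), Dusp4 (1.88 ± 0.36) and Dusp6 (0.82 ± 0.18), and the ubiquitin ligase Peli1 (1.04 ± 0.27). Of 30 NF-kB genes 5 rose and 0 fell (16.7% and 0%). Nfkbid, which encodes a nuclear IκB protein, read 8.81, 8.62 and 8.79 on the untreated and 11.38, 10.21 and 9.79 on the 4 h arrays and rose by 1.72 ± 0.30 (adjusted p = 0.00865). The subunit gene Relb, below the limit on all untreated arrays, rose at least 1.63-fold (adjusted p = 0.00837, means 6.46 and 7.41). Nfkb2, Nfkbiz and Nfkbib rose by between 0.65 and 0.96. The classical inhibitors Nfkbia and Tnfaip3 had differences of 0.67 ± 0.26 and 0.77 ± 0.27, which did not pass. Without pairing by culture 0 of the MAP kinase and 3 of the NF-kB genes passed, and without culture 8 none of either list (0 and 0).

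Few genes of the signalling chain passed. Of 36 genes close to the IgE receptor 3 rose (8.33%) and 2 fell (5.56%), against 4.13% and 4.43% of all genes, with a median of −0.04. The kinases Fyn and Tec and the exchange factor Vav2 rose by 1.75 ± 0.46, 1.16 ± 0.29 and 1.33 ± 0.35. The kinase subunits Pik3cd and Pik3cg, which form the phosphoinositide 3-kinases typical of leukocytes, fell by 1.06 ± 0.25 and 0.78 ± 0.18. The receptor chains themselves did not pass: Fcer1a read 14.44, 14.44 and 14.54 on the untreated and 14.13, 14.42 and 14.51 on the 4 h arrays, with a difference of −0.11 ± 0.12. Of 29 calcium and calcineurin genes 0 rose and 3 fell (0% and 10.3%). They were the calcium channel Itpr2 (−1.01 ± 0.23), the calcineurin regulator Rcan3 (−0.79 ± 0.20) and the catalytic subunit Ppp3cb (−0.66 ± 0.17). Of 27 inhibitors and adaptors of cytokine signalling 2 rose and 1 fell (7.41% and 3.7%), with a median of −0.18, and without culture 6 or without culture 8 none passed (0). Rgs16, a brake on G protein signals, read 6.99, 6.25 and 6.35 on the untreated and 10.90, 10.11 and 6.75 on the 4 h arrays and rose by 2.72 ± 0.67 (adjusted p = 0.0315), with overlap through culture 9. Its untreated values in cultures 8 and 9 were below their arrays' limits of 6.79 and 6.68. The adaptor Sla, which lowers antigen receptor signals in lymphocytes, rose by 1.18 ± 0.21, and Pias3, an inhibitor of STAT factors, fell by 0.52 ± 0.14. In the fit that ignored culture, 0 genes of the receptor-proximal list passed as higher and 1 as lower, and 0 of the calcium list.

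Among receptors at the surface, the low-affinity IgG receptors fell. Fcgr3, the activating receptor, read 9.79, 10.97 and 10.57 on the untreated and 8.49, 8.31 and 8.88 on the 4 h arrays. Every 4 h array was below every untreated one, a fall of −1.88 ± 0.27 or 3.69-fold (adjusted p = 0.00342). The inhibitory Fcgr2b read 8.92, 10.22 and 9.35 on the untreated and 7.62, 7.64 and 8.20 on the 4 h arrays, without overlap, and fell by 1.68 ± 0.29 (adjusted p = 0.00876). Their coding sequences are alike in part, so that a probe may not tell them fully apart. Of the 30 Fc and paired receptors measured 2 rose and 3 fell (6.67% and 10%). Cd200r3 also fell (−0.62 ± 0.17), and Cd33 and Clec4n rose (1.26 ± 0.34 and 1.13 ± 0.30). Of 19 costimulatory genes 5 rose and 0 fell (26.3% and 0%). Pdcd1lg2, which encodes the PD-1 ligand PD-L2, read 8.22, 6.90 and 7.30 on the untreated and 10.45, 10.47 and 9.61 on the 4 h arrays and rose by 2.70 ± 0.23 or 6.5-fold (adjusted p = 9.47e-05). All 3 cultures ended above every untreated array. Its neighbour Cd274, which encodes PD-L1, read 10.57, 10.79 and 11.00 on the untreated and 11.05, 11.81 and 11.01 on the 4 h arrays, and its difference of 0.50 ± 0.21 did not pass (adjusted p = 0.147). Tnfrsf9 (4-1BB) rose by 2.15 ± 0.61, and Cd27 was below the limit on all untreated arrays and rose at least 2.36-fold (adjusted p = 0.0281, means 6.12 and 7.94). The call of Tnfrsf9 held under only 5 of the 18 other settings. Of the 19 costimulatory genes 2 passed as higher without pairing by culture. With only the 6 arrays, without culture 6 or without culture 8 it was 1.

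Of 25 receptors for chemoattractants, adenosine and lipids 2 rose and 2 fell, 8% each, and without culture 6 or without culture 8 none passed (0). C5ar1, the receptor of complement C5a, rose by 1.60 ± 0.34 and the adenosine receptor Adora3 by 0.74 ± 0.15, while the lysophosphatidic acid receptor Lpar6 fell by 1.50 ± 0.30 and the histamine receptor Hrh4 by −0.99 ± 0.26. Outside these 25 genes was Cx3cr1, the fractalkine receptor. It read 9.18, 10.45 and 9.58 on the untreated and 6.47, 7.43 and 8.01 on the 4 h arrays. The 4 h value of culture 6 was below its array's limit of 6.71. The groups did not overlap, and Cx3cr1 fell by 2.43 ± 0.33 or 5.4-fold (adjusted p = 0.00201). Its fall passed without culture 6, but not without culture 8 or without pairing by culture. Il4ra was the only one of 39 lineage and growth factor receptor genes that passed, with a fall of −1.08 ± 0.24. Kit, the stem cell factor receptor, read 13.81, 14.11 and 13.91 on the untreated and 12.74, 13.63 and 13.51 on the 4 h arrays, lower at 4 h in each culture, and its difference of −0.65 ± 0.26 did not pass.

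Stored mediators showed few calls. Of 15 granule proteases and serglycin 0 rose and 0 fell. The largest differences among them were those of Mcpt8 (1.51 ± 0.53) and Mcpt4 (0.90 ± 0.79), neither past the threshold. Cpa3, the mast cell carboxypeptidase, read 14.50, 14.46 and 14.40 on the untreated and 14.44, 14.48 and 14.31 on the 4 h arrays. Gzmd, a granzyme outside that list, was below the limit on all untreated arrays, read 6.25, 6.25 and 6.29 on the untreated and 10.33, 9.81 and 6.81 on the 4 h arrays, and rose at least 4.86-fold (adjusted p = 0.0357, means 6.26 and 8.98). The gene has close copies, and its probes may read some of them. Hdc, which makes histamine, read 13.37, 11.47 and 12.04 on the untreated and 14.36, 14.45 and 13.12 on the 4 h arrays and rose by 1.68 ± 0.37 (adjusted p = 0.0226), with overlap between the high untreated value of culture 6 and the 4 h value of culture 9. Mgll, which degrades monoacylglycerol, was the only other of 18 mediator synthesis genes that passed. It was below the limit on all 4 h arrays and at least 1.01-fold lower (adjusted p = 0.0311, means 6.73 and 6.29). Of 33 exocytosis genes 2 rose and 2 fell, 6.06% each, near the shares of all genes, and without culture 6 or without culture 8 none passed (0). The SNARE genes Stx6 and Napa rose by 1.05 ± 0.25 and 0.48 ± 0.13, and Rab3d and Unc13d, both tied to granule release, fell by 1.03 ± 0.24 and 0.80 ± 0.21.

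Fxyd6, a regulator of the sodium pump, and Crabp2, a carrier of retinoic acid, stood outside the lists. Fxyd6 read 8.21, 6.97 and 7.47 on the untreated and 11.22, 10.99 and 10.49 on the 4 h arrays and rose by 3.35 ± 0.36 or 10.2-fold (adjusted p = 0.00055), to similar 4 h levels in all cultures. Crabp2, below the limit on all untreated arrays, read 6.59, 6.15 and 5.94 on the untreated and 10.38, 9.73 and 7.19 on the 4 h arrays and rose at least 5.28-fold (adjusted p = 0.0107, means 6.23 and 9.10). Pim3, a survival kinase, read 9.10, 8.74 and 9.30 on the untreated and 10.59, 10.41 and 10.40 on the 4 h arrays. Its 4 h arrays lay close together, and the rise was 1.43 ± 0.14 (adjusted p = 0.000232). Of 29 survival genes 4 rose and 2 fell (13.8% and 6.9%), and Bcl2l1 rose by 1.15 ± 0.33. Bcl2a1b and Bcl2a1d, near copies that the probes may not separate, were below the limit on all untreated arrays. They rose at least 2.48-fold (adjusted p = 0.0396, means 6.41 and 8.01) and at least 2.38-fold (adjusted p = 0.0342, means 6.22 and 7.95). Casp6 and Fadd, of the cell death machinery, fell by 0.76 ± 0.17 and 0.71 ± 0.14.

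Many genes for making ribosomes rose, each by little. Of 77 measured, 27 rose and 0 fell (35.1% and 0%), 76 had a positive difference, and the median was 0.53 against −0.04 over all genes. The median was positive in each culture: 0.50, 0.77 and 0.32. Noc3l, a factor of the large subunit, read 8.12, 7.81 and 8.17 on the untreated and 9.44, 9.14 and 8.88 on the 4 h arrays and rose by 1.12 ± 0.20 (adjusted p = 0.00958). Rrp9, a factor of the small subunit, read 8.33, 7.86 and 7.98 on the untreated and 9.40, 9.20 and 8.86 on the 4 h arrays and rose by 1.09 ± 0.15 (adjusted p = 0.00201). Neither gene's groups overlapped. Grwd1 and Utp4 rose by 1.04 ± 0.27 and 1.02 ± 0.19. The count of 27 was 45 under median scaling, 8 without pairing, 0 with only the 6 arrays, 5 without culture 6 and 0 without culture 8. The median was 0.73 under median scaling, 0.57 without culture 6 and 0.41 without culture 8. Without pairing or with only the 6 arrays it cannot move, because these settings change the estimated spread and not the differences.

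Other biosynthesis genes had positive medians and few calls. Of 30 tRNA synthetase and amino acid transport genes 6 rose and 1 fell (20% and 3.33%, median 0.42). Only 1 rose without pairing, and with only the 6 arrays, without culture 6 or without culture 8 none did (0). The glutamine carriers Slc38a1 and Slc1a5 rose by 1.63 ± 0.42 and 1.03 ± 0.22, the synthetases Rars and Nars by 0.85 ± 0.17 and 0.63 ± 0.17, and the carrier Slc7a8 fell by 0.57 ± 0.16. Psat1, of serine synthesis, and Ppat, of purine synthesis, were the 2 of 33 nucleotide and one-carbon genes that rose (1.50 ± 0.29 and 0.93 ± 0.21). Among 25 cholesterol genes Hsd17b7 rose by 2.02 ± 0.50. The median of that list was 1.01, 0.66 and −0.09 in cultures 6, 8 and 9. Cyp51, of the same pathway, read 7.30, 8.37 and 9.19 on the untreated and 10.91, 10.73 and 9.36 on the 4 h arrays, with an adjusted p of 0.0508. Ndrg1, a stress-response gene, was the only one of 27 glycolysis and hypoxia genes past the threshold (2.44 ± 0.55). Of 30 stress-response genes 0 rose and 0 fell. The largest differences there were those of Vldlr (2.10 ± 0.61) and Asns (1.66 ± 0.51).

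**Figure D3:**
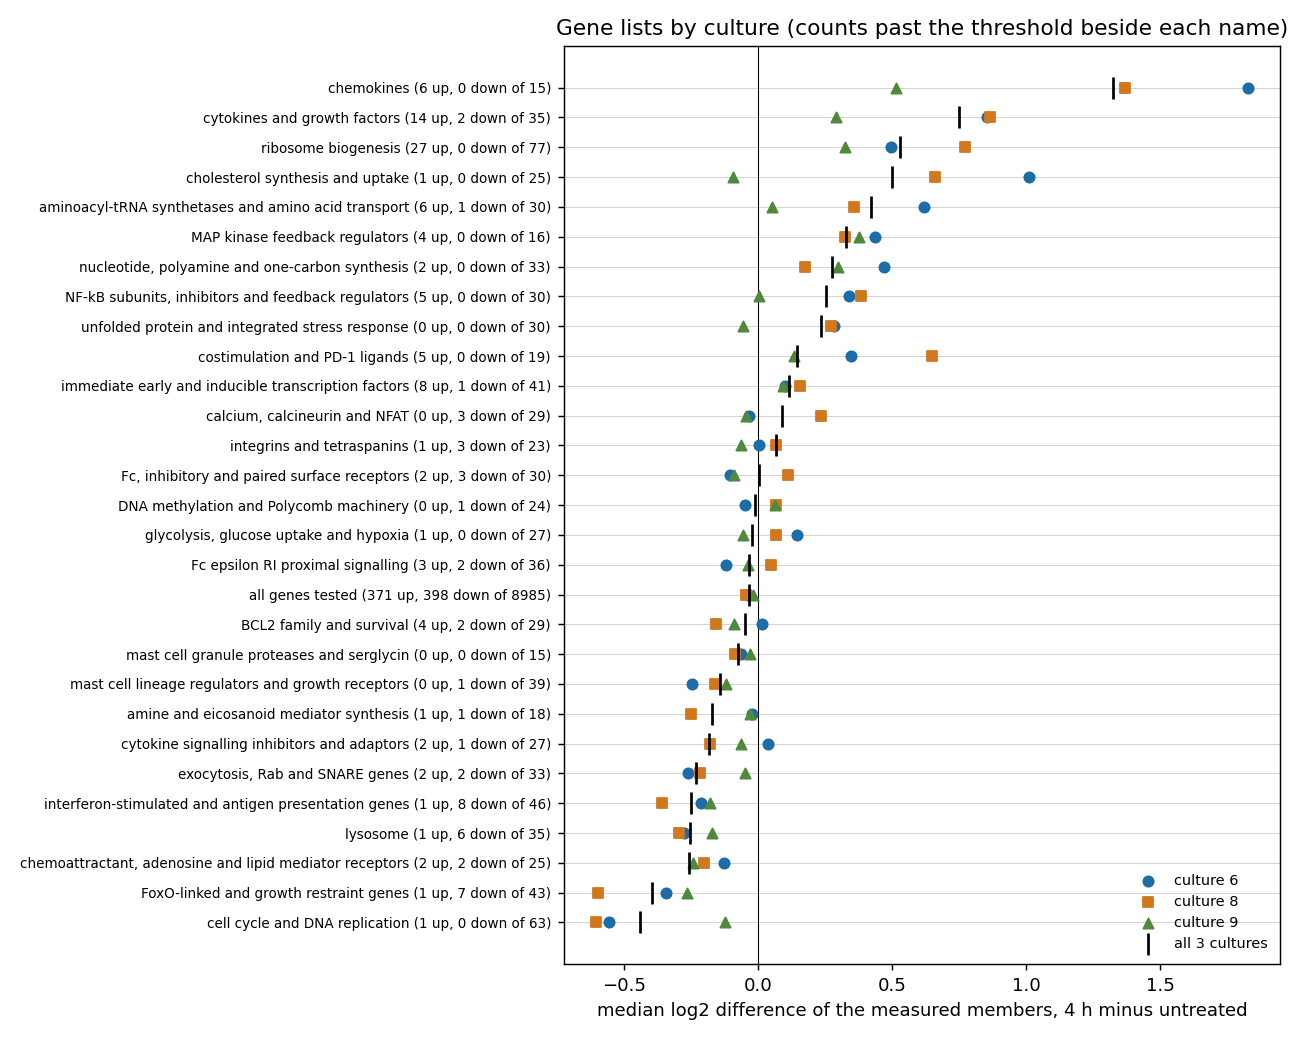
Median log2 difference (x axis) of the measured members of each gene list (y axis), for wild-type cultures 6, 8 and 9 (points) and for the mean of all 3 (bar). Chemokines are highest at 1.32 and cell cycle genes lowest at −0.44, with culture 9 nearer to 0 than the others for both lists.

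Genes that restrain growth, many of them targets of FoxO factors, made up part of the largest falls. Of 43 measured, 1 rose and 7 fell (2.33% and 16.3%, against 4.13% and 4.43% of all genes), with a median of −0.40. Ypel3, linked to growth arrest, read 11.59, 12.81 and 12.57 on the untreated and 8.63, 9.34 and 10.84 on the 4 h arrays and fell by 2.72 ± 0.48 or 6.59-fold (adjusted p = 0.00983). Txnip, which limits glucose uptake, read 12.05, 13.34 and 13.29 on the untreated and 9.75, 11.43 and 11.78 on the 4 h arrays and fell by 1.91 ± 0.39 (adjusted p = 0.0181). For both, every 4 h array was below every untreated one and culture 6 was lowest. N4bp2l1 and Pik3ip1, an inhibitor of phosphoinositide 3-kinase, fell by 1.98 ± 0.47 and 1.68 ± 0.34, and Ccng2, Mxd4 and Mxd1 by less. Tsc22d1 was the member that rose (1.70 ± 0.25). The unpaired fit called 2 as lower, and without culture 8 none passed (0).

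Interferon-linked genes fell where they passed, with 1 exception. Of 46 measured, 8 fell and 1 rose (17.4% and 2.17%, against 4.43% and 4.13% of all genes), with a median of −0.25. Gbp2, an interferon-induced GTPase, read 7.83, 9.42 and 8.63 on the untreated and 6.82, 7.08 and 7.07 on the 4 h arrays and fell by 1.64 ± 0.32 (adjusted p = 0.0156). Tap2, which carries peptides to MHC class I, read 10.89, 10.74 and 10.42 on the untreated and 8.99, 9.51 and 9.60 on the 4 h arrays and fell by 1.32 ± 0.20 (adjusted p = 0.00496). Neither gene's groups overlapped. Parp14 fell by 1.20 ± 0.15, and Oasl2, below the limit on all 4 h arrays, by at least 1.52-fold (adjusted p = 0.000947, means 7.32 and 6.21). Psmb9, Irgm2, Lgals3bp and Rsad2 fell by between 0.66 and 1.04 on the log2 scale. The member that rose was the immunoproteasome subunit gene Psmb10 (0.86 ± 0.21). Gvin1, an interferon-induced large GTPase with near copies that its probe may read, read 10.73, 10.81 and 9.36 on the untreated and 8.91, 8.57 and 8.07 on the 4 h arrays and fell by 1.78 ± 0.22 (adjusted p = 0.00143). Of the 46 listed genes 3 passed as lower without pairing by culture, and with only the 6 arrays none did (0). Gvin1 is not one of the 46. Of the 18 other settings tried, it lost its call only without pairing.

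Lysosomal genes fell where they passed, with 1 exception. Of 35 measured, 6 fell and 1 rose (17.1% and 2.86%, against 4.43% and 4.13% of all genes), with a median of −0.25. Glb1, the lysosomal β-galactosidase, read 11.66, 11.66 and 11.48 on the untreated and 11.00, 10.53 and 10.67 on the 4 h arrays and fell by 0.87 ± 0.13 (adjusted p = 0.00496). The kept probes of Glb1 were 2, and the other had the opposite sign. Sgsh, Smpd1 and Psap, which degrade or help to degrade glycans and sphingolipids, fell by 1.41 ± 0.30, 1.0 ± 0.25 and 0.88 ± 0.19, as did Ids and Naglu by less. Atp6v1h, a subunit of the proton pump, rose by 0.53 ± 0.14. Without pairing by culture 3 passed as lower, with only the 6 arrays 0, without culture 6 1 and without culture 8 0.

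Other large falls belonged to no list. Pigz, a mannosyltransferase of GPI anchors, read 9.32, 11.10 and 10.78 on the untreated and 7.05, 7.71 and 8.59 on the 4 h arrays. Each culture fell to below every untreated array, by −2.62 ± 0.20 or 6.14-fold on average (adjusted p = 7.87e-05). Jaml, an adhesion molecule of leukocytes, read 8.38, 10.18 and 8.58 on the untreated and 6.45, 7.21 and 7.48 on the 4 h arrays and fell by 2.0 ± 0.40 (adjusted p = 0.0156). Arhgap20 and Tbc1d8, both GTPase activators, fell by 1.70 ± 0.33 and 1.91 ± 0.48 without overlap. 3110040M04Rik and Mns1, a gene of cilia and flagella, fell by 2.39 ± 0.54 and 1.68 ± 0.44, and their groups overlapped through culture 9 or the low untreated value of culture 6. The integrin chain Itgb7 and the tetraspanin Tspan4 fell by 1.20 ± 0.29 and 0.75 ± 0.18, and the integrin chain Itgav rose by 0.73 ± 0.14, out of 23 integrin and tetraspanin genes. Of these 23, 1 rose (4.35%) and 3 fell (13%). Tspan32, below the limit on all 4 h arrays, was at least 2.18-fold lower (adjusted p = 0.00697, means 7.84 and 6.61).

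**Figure D4:**
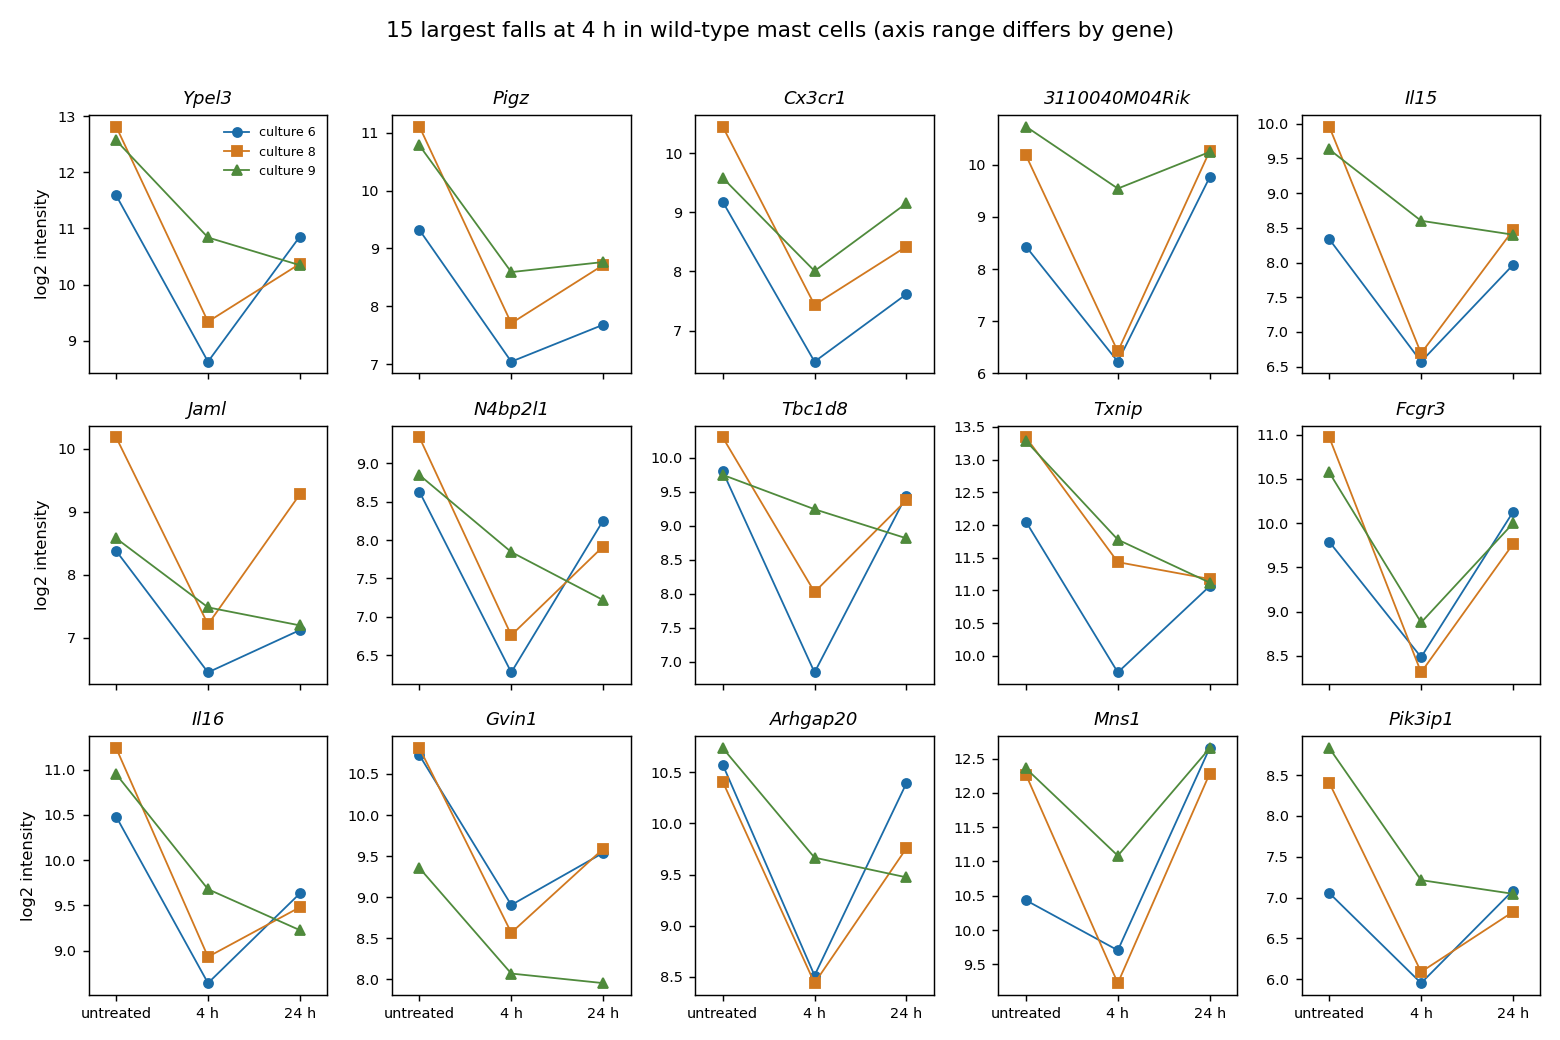
Log2 intensity (y axis) of the 15 genes with the largest falls at 4 h, for wild-type cultures 6, 8 and 9 (a line each) untreated, at 4 h and at 24 h (x axis). Culture 9 had the smallest fall for 12 of the 15, and culture 6 for the other 3.

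Proliferation genes had negative differences that did not pass. Of 63 cell cycle and replication genes 6 had a positive difference and the median was −0.44, but the only one past the threshold was Ccnd2, which rose. Ccnd2 encodes cyclin D2, which acts at entry into the cycle. It read 10.91, 10.54 and 9.65 on the untreated and 11.79, 12.15 and 10.95 on the 4 h arrays and rose by 1.27 ± 0.22 (adjusted p = 0.00854). Prc1, of the dividing spindle, read 11.50, 8.39 and 9.85 on the untreated and 8.31, 6.58 and 9.52 on the 4 h arrays, and its difference of −1.77 ± 0.73 did not pass (adjusted p = 0.137). The untreated cultures alone ran from 8.39 to 11.50 for this gene. Dnmt1, the maintenance DNA methyltransferase, was the only one of 24 DNA methylation and Polycomb genes past the threshold, with a fall of −0.59 ± 0.13 and overlapping groups.

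Culture 9 responded in the same direction as the others and less. The SD of the log2 difference over all genes was 0.622 in culture 6, 0.664 in culture 8 and 0.361 in culture 9. The median difference of the genes called higher was 0.87, 1.12 and 0.48 in that order, and that of the genes called lower −0.84, −1.08 and −0.58. The difference was smallest in culture 9 for 278 of the 371 genes that rose and for 280 of the 398 that fell. These medians were taken over genes chosen on the same arrays and describe them only. The 2 arrays of culture 9 had lower highest signals (23922 and 23712) than those of cultures 6 and 8 (28216 to 34871) before normalisation. Arrays whose names share a number are called a slide here, a reading of the array names that the labels do not state. Each wild-type culture was on a slide of its own, so culture and slide cannot be told apart. Knockout cultures 3, 4 and 6, on the same slides as wild-type cultures 6, 8 and 9, had SDs of 0.663, 0.535 and 0.437.

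The knockout cultures give the same contrast on other arrays. Of the 8985 genes, 241 were higher (2.68%) and 174 lower (1.94%) at 4 h, together 4.62%. Of the genes that rose in wild-type cells, 154 also rose in the knockout, which is 41.5% of the wild-type and 63.9% of the knockout list. Of those that fell, 114 also fell, or 28.6% and 65.5%. Among the wild-type calls 366 of 371 and 393 of 398 had the same sign in the knockout. The share of all genes with matching signs was not counted. Over all 8985 genes, called or not, the mean differences of the genotypes correlated by 0.86. Both sets of calls come from 1 fit with a spread shared by the genotypes, so they are not independent of each other. Ccl1 and Ccl3 had knockout differences of 6.35 and 6.15, against 6.20 and 6.12 in wild type. Csf2 had 5.54 against 3.97, and Pigz −1.88 against −2.62. The difference between the responses, tested as an interaction term in limma, passed for 0 genes (0%). At an unadjusted p under 0.05 there were 214, fewer than the 449 that this threshold gives if no gene differs, and the smallest adjusted p was 0.343. Such a deficit does not show that the responses are equal, and its cause was not tested. With culture as a random effect 1 gene passed. Over all genes the slope of the wild-type on the mean knockout difference was 1.08 for culture 6, 1.10 for culture 8 and 0.399 for culture 9.

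**Figure D5:**
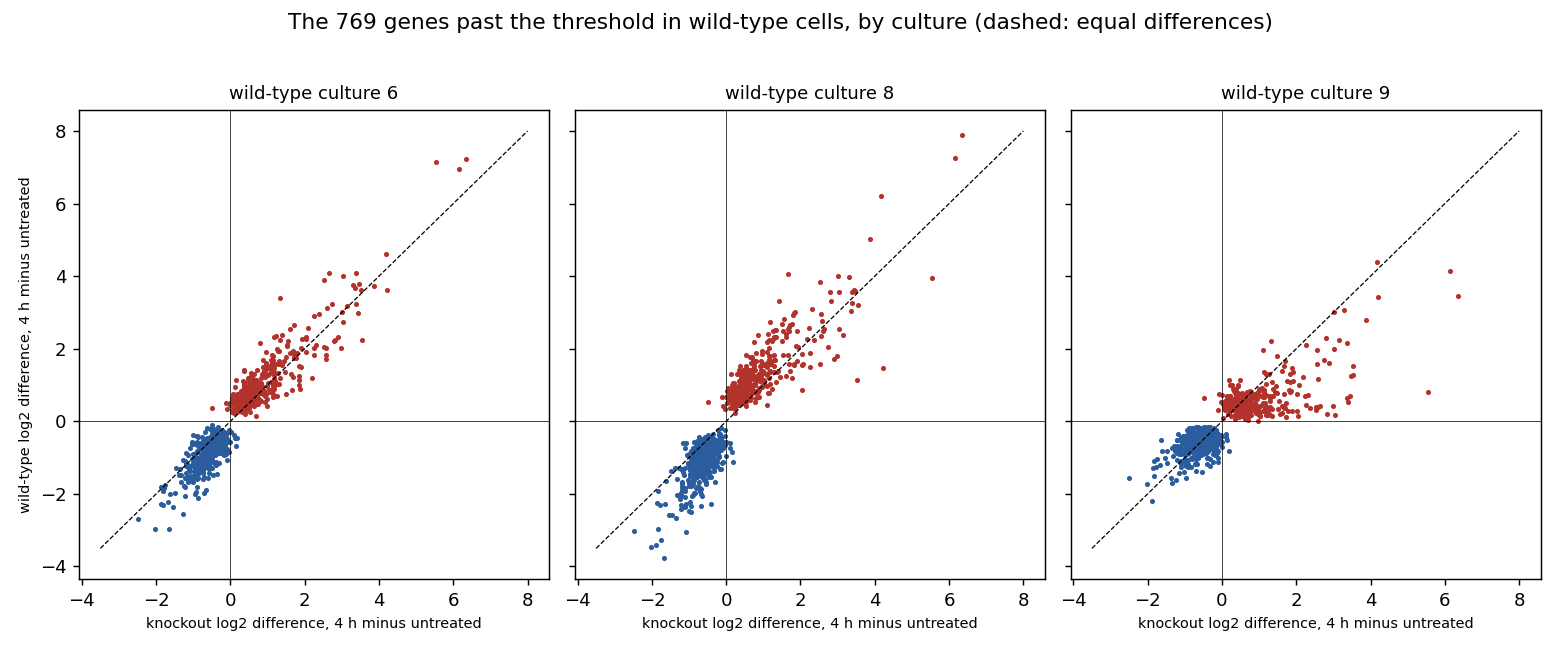
Log2 difference of 4 h minus untreated for the 769 genes past the threshold in wild-type cells, in each wild-type culture (y axis, a panel each) against the mean of the knockout cultures (x axis; red, higher in wild type; blue, lower; dashed, equal). Points of culture 9 lie nearer to 0 than those of cultures 6 and 8.

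The 24 h arrays of the same cultures show how long the 4 h levels lasted. Between 4 h and 24 h 871 genes were higher (9.69%) and 735 lower (8.18%) at 24 h, together 17.9%. The largest drops past the threshold were those of Csf2, Errfi1, Ch25h, Crabp2 and Egr2, with differences of 24 h minus 4 h from −3.44 to −2.60. Among them Errfi1 and Ch25h had not passed at 4 h against untreated. Il13 read 8.24, 7.45 and 7.40 at 24 h and was lower than at 4 h by −2.36 (adjusted p = 0.0049). Ccl7 read 13.58, 12.74 and 13.01, and Il1b read 11.41, 8.80 and 9.29. Their differences from 4 h of −0.28 and −0.03 did not pass. The largest gains were those of the mitosis and cohesion genes Prc1, Pbk, Esco2 and Birc5 and of Mrvi1, from 2.72 to 2.94. Against untreated, 418 genes (4.65%) passed at 24 h, 189 higher (2.1%) and 229 lower (2.55%). Both comparisons share arrays with the 4 h comparison, and with only the arrays of 4 h and 24 h fitted 0 genes passed (491 without pairing by culture, 7 without culture 8).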

How the data were processed

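Total RNA of 18 samples was measured on Illumina mouse bead arrays, 3 for each genotype and condition. Per the labels' protocols the labelled target was biotinylated cRNA from an Ambion kit, and RNA integrity was checked. The authors deposited 2 tables. The first deposited table holds each probe's intensity on a linear scale and not normalised between arrays. The second deposited table holds log2 values, and quantile normalisation of the first table gave them back to within 0.000556. The scanner software is not given in the sources used.

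Intensities were corrected by normexp (offset 50), quantile normalised and log2 transformed (R 4.3.3, limma 3.58.1). Of 45281 probes 16669 were above the detection limit on at least 3 of 18 arrays. Those with 1 gene symbol covered 8985 genes, and the probe with the highest mean stood for its gene. All 18 arrays were fitted with culture as a block and a term for each genotype and time (8 residual degrees of freedom). Tests were two-sided with eBayes, and p-values were adjusted by Benjamini-Hochberg over all genes. The culture numbers used for pairing come from the labels. For the 18 pairs of arrays of 1 culture the residuals around group means correlated by 0.134 to 0.625, all over 0.1 (median 0.361). Each slide (arrays whose names share a number, a reading the labels do not state) held 1 culture of each genotype, and pairs of different cultures on 1 slide had a median of 0.328, so within a genotype culture and slide cannot be told apart. Pairs on other slides had a median of −0.172.

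Members, lists, tests and the rule for names were chosen with earlier results of these data known. Named were the 15 largest rises and falls with 1 sign in all cultures, up to 4 members of each list past the threshold in each direction (with none, the 2 largest differences) and the 5 largest changes in each direction from 4 h to 24 h. Other genes in the text were picked after their values were seen. Where a group was above the limit on no array, the fold is a bound against the lowest signal above the limit. Where only some arrays of a group were below the limit, the difference is given without a bound. On the normalised log2 scale the limits of the 6 arrays ran from 6.64 to 6.79. On simulated data for this comparison over 8985 genes the fit recovered 4, 45, 50 and 50 of 50 genes changed by 0.5, 1, 2 and 3 on the log2 scale, and called 7 unchanged genes. The simulated noise was independent between arrays, with the same spread on every array, and each change was equal in all cultures. The real cultures responded unequally, so these counts cannot be carried over to the data. The number of arrays limits the precision. Other settings tried concerned background, scaling, filter, probes, block, weights and arrays left out. Promoter sequences are RefSeq's for GRCm38.p6, whose gene table was used otherwise only for neighbours and chromosomes.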

Additional observations from a re-analysis of the deposited data

Results flagged for a closer look

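Ppp1cb, which encodes a catalytic subunit of protein phosphatase 1, moved in opposite directions in the genotypes. In wild-type cells it read 9.88, 9.88 and 9.93 untreated and 10.25, 10.41 and 10.57 at 4 h in cultures 6, 8 and 9, a rise of 0.52 ± 0.11 (adjusted p = 0.0229). In the knockout it fell by 0.49 ± 0.11 (adjusted p = 0.0332), with every culture of a genotype on the same side. It was the only gene called in opposite directions. The difference of the responses, knockout minus wild type, was −1.01 ± 0.16 on the log2 scale, and its test over all genes did not pass (limma adjusted p = 0.343).

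Probes without a single gene name were left out of the comparison above. Tested apart, 98 of 2596 such probes above the detection limit passed at 4 h in wild-type cells, 51 of them higher and 47 lower. This is 3.78%, below the 8.56% of the named genes tested.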

How the results depend on the processing

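The count of 769 genes changed at 4 h in wild-type cells was 164 with no replicate block, that is without pairing by culture. The block also moved the counts for the knockout at 4 h (415, and 73 without it) and for 24 h against 4 h in wild type (1606 and 491), and it left the test of the difference between genotypes at 0. With only the arrays of the compared groups fitted the counts were 31 for wild type at 4 h and 0 for 24 h against 4 h. With array weights, whose estimation stopped before it converged, they were 1841, 1729 for the knockout and 3008. With a 2-fold minimum they were 246, 184 and 471. Dropping culture 9's array at 4 h gave 1506 and, for the knockout, 726. With culture as a random effect 1 gene differed between genotypes. Leaving out each culture of either genotype in turn gave 26 to 1025 genes for wild type at 4 h (122 without wild-type culture 6, 26 without culture 8, 281 without knockout culture 4), 43 to 585 for the knockout (43, 58 and 275 without knockout cultures 3, 4 and 6, 222 without wild-type culture 8) and 7 to 1631 for 24 h against 4 h (621 without wild-type culture 6, 7 without culture 8). The causes were not tested. Culture as a random effect, slide as a block, no background correction, the authors' values, cyclic loess and filters gave 552 to 873 genes for wild type at 4 h, and every kept probe taken singly gave 1128 of 14073 probes. Median scaling gave 763, of which 75.5% were higher against 48.2%. For the knockout the share was 72.4% against 58.1%, and for 24 h against 4 h 83.2% against 54.2%. No named gene changed sign under the 18 settings tried on them. Those that change the block, fit only the 6 arrays or leave out a knockout culture could not change a sign. Of 116 named genes 106 had a call to lose. Of these 106, 67 lost it without the block, 87 with only the 6 arrays, 73 without culture 6 and 91 without culture 8. Counts within the gene lists under other scalings and with arrays left out were chosen after seeing the data. Detection was limited by signals near the arrays' limits of 112 to 147.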

Other observations

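Gene families outside the lists were looked at after their values had been seen, and they have no test as families. Subunits of the cytosolic chaperonin CCT, which folds actin and tubulin, rose in 5 of 8 cases and fell in 0 (median log2 difference 0.54), among them Cct7 by 0.75 ± 0.13 (limma adjusted p = 0.00815). The unpaired fit called 1 of them, and with only the 6 compared arrays, or without culture 8, 0 passed. Of 6 Bardet-Biedl genes, whose products serve transport in cilia, 0 rose and 3 fell, namely Bbs9 by 1.05 ± 0.18, Bbs12 by 0.83 ± 0.18 and Bbs2 by 0.63 ± 0.15. Of 4 N-acetylglucosaminyltransferase genes that branch N-glycans, Mgat5 rose by 0.99 ± 0.25, and Mgat4a and Mgat4b fell by 0.90 ± 0.22 and 0.82 ± 0.16. In both families 0 passed with only the 6 arrays, without culture 6 or without culture 8. Of the ribosomal protein genes 1 of 53 cytosolic and 3 of 69 mitochondrial ones rose and 0 fell in either family, against 4.13% and 4.43% of all genes.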
